A study of Mus musculus with 6 samples.

Results

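The genes described here encode 3 linked groups of transcription factors: the E proteins (Tcf3, Tcf4 and Tcf12), the Id proteins (Id1, Id2 and Id3) and the zinc-finger homeobox factors Zeb1 and Zeb2. They were taken by symbol from the table of 34745 genes. All 8 were found, each under 1 gene ID, and all 8 were among the 12967 genes that passed the filter on low counts. The RNA came from splenic naive CD4 T cells, isolated from C57BL/6 females 6 weeks old, activated through CD3 and CD28 by antibodies and grown for 4 days toward the Th17 fate. Both groups were given 20 ng/ml of IL-6, 10 ng/ml of IL-23, 2 ng/ml of TGF-beta and 5 ng/ml of IL-2, with antibodies to IFN-gamma and IL-4 at 5 µg/ml each. Cells of the PM2.5 group (3 libraries) received fine airborne particulate matter at 100 µg/ml 6 h after stimulation, and those of the control group (3 libraries) received PBS. Nothing in the labels says that the 3 libraries of a group came from separate animals or cultures, so p-values measure the spread between these libraries, which may be technical.

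E proteins are basic helix-loop-helix factors that bind E-box sites (CANNTG) as dimers, and they direct lymphocyte development. Id proteins have the helix-loop-helix but no basic DNA-binding region, so an Id protein paired with an E protein keeps it off DNA. Zeb1 and Zeb2 bind a related site (CACCT) through clusters of zinc fingers and mostly repress transcription. In T cells, Id3 is best known from naive, memory and regulatory cells and Id2 from effector cells, Zeb1 as a repressor of Il2, and Zeb2 as a factor of terminal effector CD8 T cells and NK cells.

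Library totals ran from 19511561 to 22353131 counts in the control and from 25397965 to 27215853 in the PM2.5 group, so every PM2.5 library was deeper. T cell markers were abundant in all libraries, with a sum over the 8 listed genes of 2759 to 2833 CPM (count per library size, after TMM factors) in the control and 2427 to 2465 CPM in the PM2.5 group. The 8 Th17 markers summed to 3545 to 3632 and 2642 to 3128 CPM. Markers of CD8 T cells summed to 10.0 to 11.2 and 9.06 to 10.0 CPM, those of neutrophils, nearly all Ly6g with S100a8, S100a9, Elane and Camp at 0, to 5.24 to 6.14 and 0.564 to 0.705 CPM, and those of endothelial and stromal cells, mostly Pecam1, to 81.3 to 86.9 and 48.4 to 52.0 CPM. In bulk RNA, fewer cells of a type and less RNA per cell cannot be told apart.

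Promoter sequence was at hand for 5 of the 8 genes, Id2, Id3, Tcf3, Tcf12 and Zeb2, and was missing for Id1, Tcf4 and Zeb1. The 4 stretches that follow are shown because they belong to the member with the largest change (Zeb2), to the most abundant Id gene (Id2) and to a pair of E protein genes that moved apart (Tcf3 and Tcf12). They come from RefSeq, build GRCm38.p6, are written 5′ to 3′ on the gene's strand from 250 bases before the annotated start, and stop where an annotated exon begins. Capitals mark E-boxes (CANNTG), the Zeb site CACCT or its reverse complement AGGTG, and the palindrome GGCGCC, a site bound by Smad factors.
Zeb2, chr2:45117443-45117692, minus strand: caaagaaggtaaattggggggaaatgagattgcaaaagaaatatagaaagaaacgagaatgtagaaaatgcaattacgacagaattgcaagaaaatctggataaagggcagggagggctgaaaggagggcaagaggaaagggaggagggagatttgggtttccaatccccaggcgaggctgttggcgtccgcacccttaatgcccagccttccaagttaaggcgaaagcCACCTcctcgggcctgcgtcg
Id2, chr12:25096254-25096342, minus strand: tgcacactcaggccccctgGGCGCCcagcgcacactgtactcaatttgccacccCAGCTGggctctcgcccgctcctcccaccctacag
Tcf12, chr9:72111872-72112069, minus strand: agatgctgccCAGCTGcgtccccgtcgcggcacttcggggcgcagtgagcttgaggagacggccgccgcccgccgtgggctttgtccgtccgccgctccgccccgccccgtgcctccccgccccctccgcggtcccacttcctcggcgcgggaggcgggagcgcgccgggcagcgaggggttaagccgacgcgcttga
Tcf3, chr10:80433648-80433885, minus strand: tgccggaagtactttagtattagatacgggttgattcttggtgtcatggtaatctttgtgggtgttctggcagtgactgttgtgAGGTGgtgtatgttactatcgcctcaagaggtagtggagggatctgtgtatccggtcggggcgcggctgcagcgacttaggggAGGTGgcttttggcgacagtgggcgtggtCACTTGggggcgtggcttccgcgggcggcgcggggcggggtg

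The Id2 and Tcf12 stretches each hold the E-box CAGCTG, 196 and 240 bases before the start. This word, read on both strands, occurs in 16.3% of the 32851 promoter windows of 300 bases in the same table. No CANNTG was found in the 4 windows of Zeb2 or in the window of Id3, against 72.3% of all windows with at least 1. The Zeb site occurs, on either strand, in 51.9% of windows, and it also lies inside 1 kind of E-box (CAGGTG, in 20.2%). The palindrome GGCGCC, found in the Id2 window, occurs in 11.9%. Zeb2 and Tcf12 have 4 and 3 annotated starts in the table, and the counts do not say which one the cells used. A match is a word in a sequence, not a bound site.

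**Figure D1:**
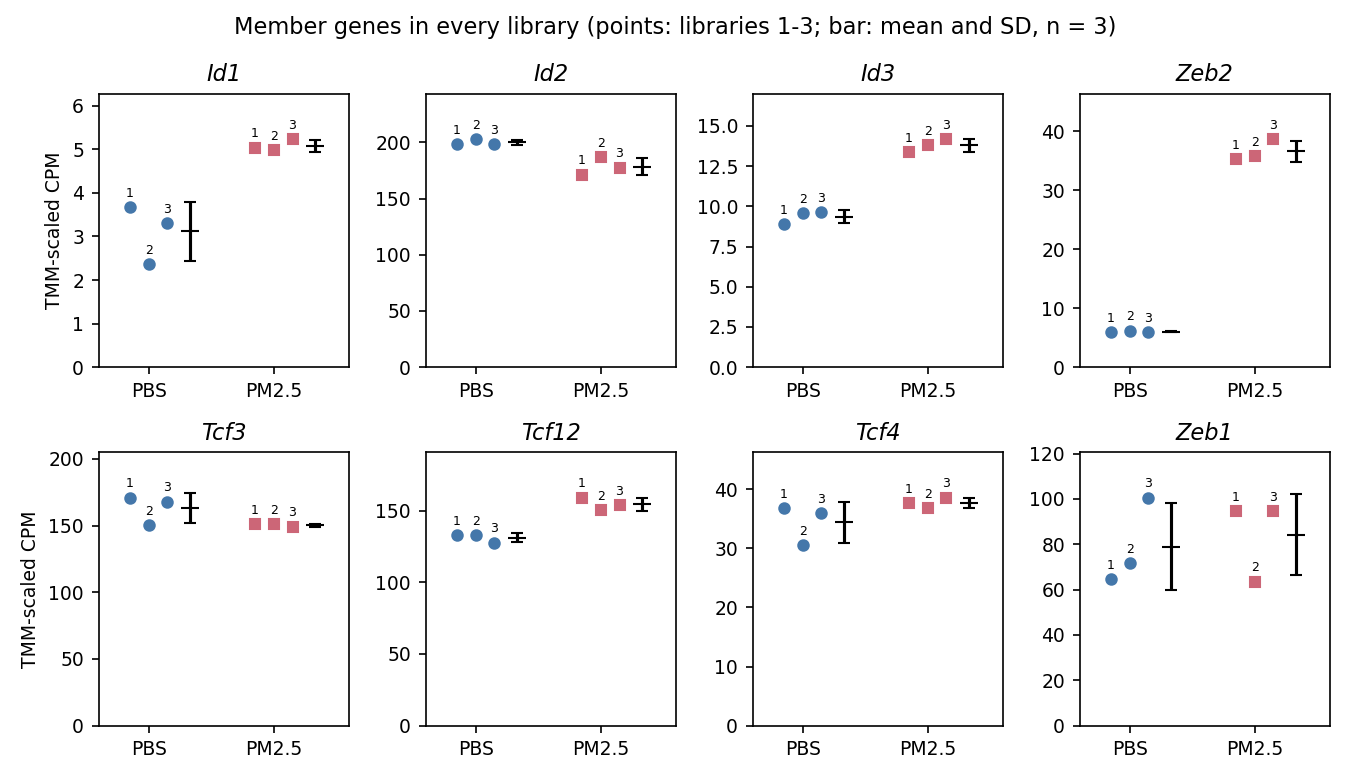
TMM-scaled CPM of the 8 genes in each library, with circles for PBS, squares for PM2.5, small digits for the library number, and a bar for the mean and SD (n = 3). Zeb2 rose in all 3 PM2.5 libraries, Id1 and Id3 stood above the control range, and Zeb1 overlapped widely between the groups.

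Among the 8 genes, 4 were higher in the PM2.5 group (Id1, Id3, Tcf12 and Zeb2), 2 were lower (Id2 and Tcf3), and 2 did not pass (Tcf4 and Zeb1), with the threshold for edgeR's quasi-likelihood test set at 0.05 after adjustment. Over the whole series, 70.6% of genes tested passed, 35.2% higher and 35.3% lower, so the share of members that passed is near the background. What sets the members apart from each other is size: only Zeb2 changed at least 2-fold, as did 18.9% of all genes tested. The median log2 fold change of the members was 0.18, beside -0.01 over all genes tested.

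Zeb2, the repressor tied to terminal effector differentiation in CD8 T cells and NK cells (ENSMUSG00000026872, mm10 chromosome 2, 44983632 to 45117395), was counted 135, 122 and 137 times in the control libraries and 939, 912 and 960 times in the PM2.5 libraries. In TMM-scaled CPM these are 5.97, 6.15 and 5.97 against 35.3, 35.7 and 38.7. The control values lie within 1.03-fold of each other and the PM2.5 values within 1.10-fold, with a wide gap between the groups. Zeb2 rose 6.06-fold (log2 fold change 2.60, SE 0.07, adjusted p = 3.06e-10), and the size of its change exceeded that of 97.1% of genes tested. On log2(FPKM + 1), where low values are drawn together, the difference was 0.79. Its antisense neighbour Zeb2os, whose exons overlap those of Zeb2, had 5 counts over all 6 libraries, 0.156% of the Zeb2 total.

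Zeb2 is also expressed by macrophages, dendritic cells, NK cells and B cells, so the markers of those cells are given beside it. The 8 macrophage markers summed to 5.53 to 7.03 CPM in the control and 3.12 to 3.56 CPM in the PM2.5 group, with Lyz2 at 0 counts in every library. The 8 NK cell markers summed to 67.2 to 78.2 CPM and 29.4 to 30.6 CPM, with the defining receptor Ncr1 at 0, and 5 members fell, among them Klrd1 (-2.43), Klre1 (-1.78) and the granule protease Gzma (-1.29). The remaining tested member, the factor Eomes, rose from 2, 1 and 2 counts in the control to 30, 20 and 25 counts in the PM2.5 group. That is 0.0753 and 0.973 CPM, too few in the control for a fold to be given. Most of the NK cell sum was Klrd1 (38.4 CPM in the control and 7.11 CPM in the PM2.5 group) and Klrc1 (21.8 and 17.5 CPM). Over all genes tested, 35.3% were lower and 35.2% higher.

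The 8 dendritic cell markers summed to 2.21 to 3.22 CPM in the control and 3.01 to 3.95 CPM in the PM2.5 group, with Clec9a, Cd209a and Clec10a at 0. The transcription factor Zbtb46 rose (2.54, from 0.455 to 2.68 CPM). The factor Batf3 (-2.01) and the integrin gene Itgax (-1.17) fell, Itgax without a call in DESeq2 (adjusted p = 0.141) or without control replicate 3 (0.0561). The plasmacytoid dendritic cell list summed to 137 to 141 and 63.7 to 64.8 CPM, nearly all of it Irf8, which T cells also express and which fell (-1.24), with Siglech at 0. Spib rose (2.33, from 0.241 to 1.25 CPM). Cox6a2 also passed, from 1, 0 and 0 counts in the control to 16, 21 and 22 in the PM2.5 group. Its control counts were too few for a fold to be given. The 8 B cell markers summed to 4.33 to 5.39 CPM in the control and 21.2 to 22.2 CPM in the PM2.5 group. That sum is carried by Ebf1, a B lineage transcription factor, which rose from 3.52 ± 0.25 to 21.5 ± 0.50 CPM (SD, n = 3; log2 fold change 2.61, SE 0.08, adjusted p = 1.03e-09). The defining B cell genes Ms4a1 and Fcer2a were at 0 in all libraries, and Cd79b fell from 0.724 to 0.117 CPM. The part of other cells in the Zeb2 result was not tested beyond these values.

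Zeb1, the other factor of the family (ENSMUSG00000024238, chromosome 18, 5591860 to 5775467), had 64.5, 71.6 and 100.6 CPM in the control and 94.5, 63.5 and 94.7 CPM in the PM2.5 group. The high libraries were control replicate 3 and PM2.5 replicates 1 and 3, so the groups overlapped. The log2 fold change was 0.09 (SE 0.26, adjusted p = 0.771), with a 95% interval of -0.62 to 0.80 that holds a fall to 0.652 and a rise to 1.75 times the control. A change in Zeb1 was therefore not detectable against this spread, rather than absent. Its coefficient of variation within groups (the root mean square of both groups' values) was 22.8%, where counting error alone gives 2.27%, and 98.0% of the 3957 genes tested within 2-fold of its mean CPM varied less. Without control replicate 1 the sign turned (-0.04, adjusted p = 0.923).

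The makeup of the Zeb pair shifted. Per length, on the deposited FPKM scale, Zeb2 made up 4.27%, 3.98% and 2.78% of the summed Zeb transcripts in the control libraries and 15.3%, 21.4% and 16.5% in the PM2.5 libraries. Per kilobase of the longest transcript its mean share was 4.79% in the control and 22.1% in the PM2.5 group. The groups did not overlap, and Zeb1 remained the more abundant of the pair in every library. In deposited FPKM, the ratio of Zeb2 to Zeb1 went from 0.0383 ± 0.0085 to 0.216 ± 0.049 (SD, n = 3). The coefficient of variation of CPM was 1.73% in the control and 5.01% in the PM2.5 group for Zeb2, and 24.2% and 21.4% for Zeb1.

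Id2, the most abundant Id gene (ENSMUSG00000020644, chromosome 12, 25093801 to 25096092), had 198.7, 203.0 and 198.7 CPM in the control and 171.4, 186.7 and 177.6 CPM in the PM2.5 group. Every PM2.5 library lay below every control library. It fell by 0.16 on the log2 scale (SE 0.04, adjusted p = 0.00241), 1.12-fold, a change smaller than that of most genes: 21.8% of genes tested changed less.

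Id3, whose transcription follows T cell receptor signals (ENSMUSG00000007872, chromosome 4, 136143497 to 136145755), moved the other way. It had 201, 190 and 221 counts in the control and 356, 352 and 352 in the PM2.5 group, or 8.88, 9.57 and 9.62 against 13.4, 13.8 and 14.2 CPM. The groups did not overlap, and the rise was 1.47-fold (log2 fold change 0.56, SE 0.07, adjusted p = 6.71e-05). Its coefficient of variation within groups was 3.73%, under the 5.99% that counting error alone gives.

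Id1, an Id gene induced by BMP signals in many cell types (ENSMUSG00000042745, chromosome 2, 152736251 to 152737410), was the least abundant of the 3 Id genes, with 83, 47 and 76 counts in the control and 134, 127 and 130 in the PM2.5 group. These are 3.67, 2.37 and 3.31 CPM against 5.04, 4.98 and 5.24 CPM. Control replicate 2 was the lowest and the groups did not overlap. Id1 rose 1.62-fold (log2 fold change 0.70, SE 0.16, adjusted p = 0.0024), with a 95% interval of 1.27-fold to 2.06-fold, and on log2(FPKM + 1) the difference was 0.43. Id4, the remaining gene of the family, had 0 counts in all 6 libraries, where a count of 0 allows up to 0.113 to 0.151 CPM in a library, a limit of 3 counts that covers counting error only.

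**Figure D2:**
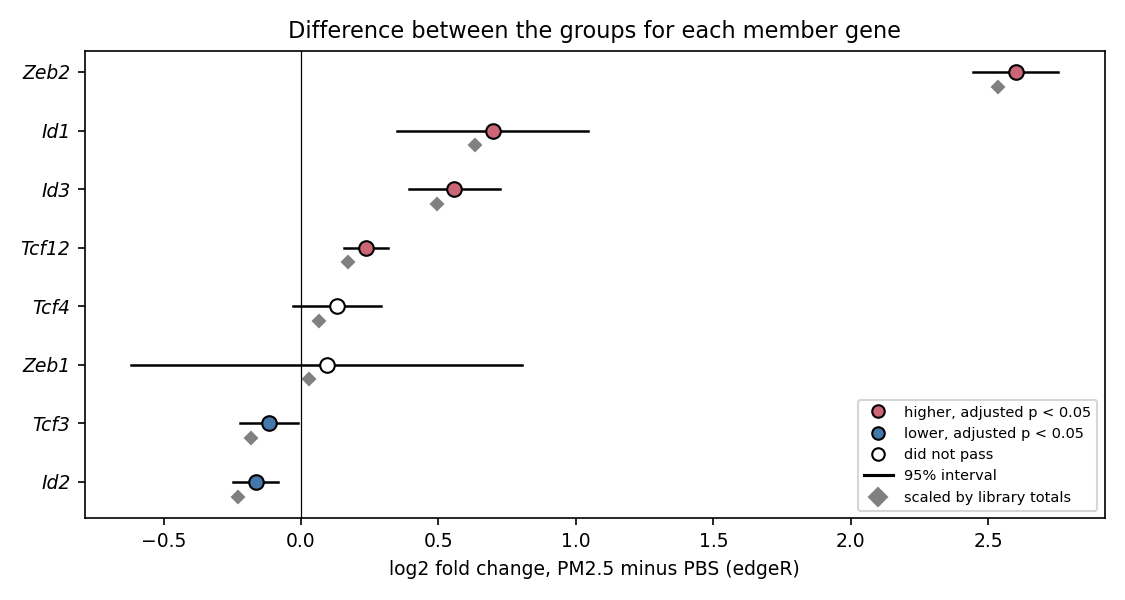
Log2 fold change of PM2.5 over PBS for the 8 genes with 95% intervals from edgeR, and as grey diamonds the value with scaling by library totals. Zeb2 lies at 2.60, Id1, Id3 and Tcf12 lie above 0, Id2 and Tcf3 lie below 0, and the intervals of Tcf4 and Zeb1 cross 0.

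The balance among Id transcripts therefore shifted while Id2 stayed dominant. In deposited FPKM, Id2 held 96.5%, 96.8% and 96.4% of the summed Id transcripts in the control libraries and 94.2%, 94.6% and 94.2% in the PM2.5 libraries, without overlap. Its share depends on the gene lengths used: per kilobase of the longest transcript the mean was 91.0% in the control and 85.7% in the PM2.5 group. The ratio of Id2 to Id3 fell from 38.7 ± 1.58 to 23.4 ± 0.94 (SD, n = 3), to 0.605 of its control value, a factor that does not depend on the gene lengths used.

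Tcf12, which encodes the E protein HEB (ENSMUSG00000032228, chromosome 9, 71842688 to 72111871), rose. It had 132.9, 132.8 and 127.6 CPM in the control and 159.1, 150.3 and 153.8 CPM in the PM2.5 group, with no overlap. The rise was 1.18-fold (log2 fold change 0.24, SE 0.04, adjusted p = 0.000148), and 0.14 on log2(FPKM + 1).

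Tcf3, which encodes E2A (ENSMUSG00000020167, chromosome 10, 80409514 to 80433647), had 170.9, 150.3 and 167.8 CPM in the control and 151.0, 151.0 and 149.0 CPM in the PM2.5 group. Control replicate 2 lay within the PM2.5 range, so the groups overlapped. The log2 fold change of -0.12 (SE 0.05, adjusted p = 0.0453) passed narrowly. DESeq2 did not call it (adjusted p = 0.129), and neither did edgeR without control replicate 1 or 3 or without any 1 PM2.5 replicate (adjusted p = 0.0963 to 0.159), whereas scaling by library totals gave -0.18 (adjusted p = 0.00676). Over all alternatives its adjusted p ranged from 0.000891 to 0.159. Counts are per gene and do not separate the splice forms of Tcf3.

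Tcf4, the E protein gene most used by plasmacytoid dendritic cells and B cells (ENSMUSG00000053477, chromosome 18, 69343356 to 69689079), was the least abundant E protein gene. It had 36.8, 30.5 and 36.0 CPM in the control and 37.7, 36.8 and 38.6 CPM in the PM2.5 group. The ranges met within 0.1 CPM, and the log2 fold change of 0.13 (SE 0.07) did not pass (adjusted p = 0.129), with a 95% interval of -0.03 to 0.29, or 0.980-fold to 1.22-fold.

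The E protein genes thus moved by small amounts and in different directions. The ratio of Tcf3 to Tcf12 in deposited FPKM was 4.25, 3.74 and 4.34 in the control and 3.13, 3.32 and 3.20 in the PM2.5 group, without overlap, and fell to 0.783 of its control mean. In TMM-scaled CPM the groups stayed apart for Id1, Id2, Id3, Tcf12, Zeb2 and, by the narrow gap above, Tcf4. These are 6 of 8 genes, beside 74.9% of all genes tested. In deposited FPKM the Tcf4 groups overlapped, at 0.742, 0.613 and 0.730 in the control and 0.727, 0.710 and 0.745 in the PM2.5 group.

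Levels can be compared between genes only per length, and here the length used matters. The deposited FPKM divide each count by 1 fixed length per gene. For 7155 of 10484 genes with enough counts (68.2%) this length equals, within 1%, the summed length of the distinct exons of the gene in GENCODE M21, where overlapping exons of different transcripts are each counted. For Tcf4 the length is 50628 bases, 5.90 times its longest annotated transcript of 8577 bases. The factor is 4.95 for Tcf12, 3.74 for Zeb2, 3.20 for Tcf3, 2.84 for Zeb1, 1.81 for Id1, 1.79 for Id3 and 0.645 for Id2. Id2 is an exception to the exon rule. Its deposited length of 1270 bases is below its summed distinct exons (4133), its merged exons (2438) and its longest transcript (1969). The reason is not known, and this short length raises the FPKM of Id2 beside those of the other members.

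On the deposited FPKM scale the control levels ran from Id2 (161 ± 1.42) through Tcf3 (17.6 ± 1.26), Zeb1 (4.90 ± 1.21), Tcf12 (4.30 ± 0.08), Id3 (4.17 ± 0.19), Id1 (1.52 ± 0.33) and Tcf4 (0.695 ± 0.071) to Zeb2 (0.180 ± 0.002; SD, n = 3). Zeb1, Tcf12 and Id3 did not differ beyond their spread in this order. Per kilobase of the longest transcript, the control levels in CPM were 102 ± 1.25 for Id2, 55.3 ± 3.77 for Tcf3, 20.8 ± 0.48 for Tcf12, 13.6 ± 3.29 for Zeb1, 7.32 ± 0.32 for Id3, 4.01 ± 0.40 for Tcf4, 2.69 ± 0.58 for Id1 and 0.661 ± 0.011 for Zeb2. In the PM2.5 group the last 3 came together on that scale, with Tcf4 at 4.39 ± 0.10, Id1 at 4.38 ± 0.12 and Zeb2 at 4.01 ± 0.20, the first pair closer than their spread.

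**Figure D3:**
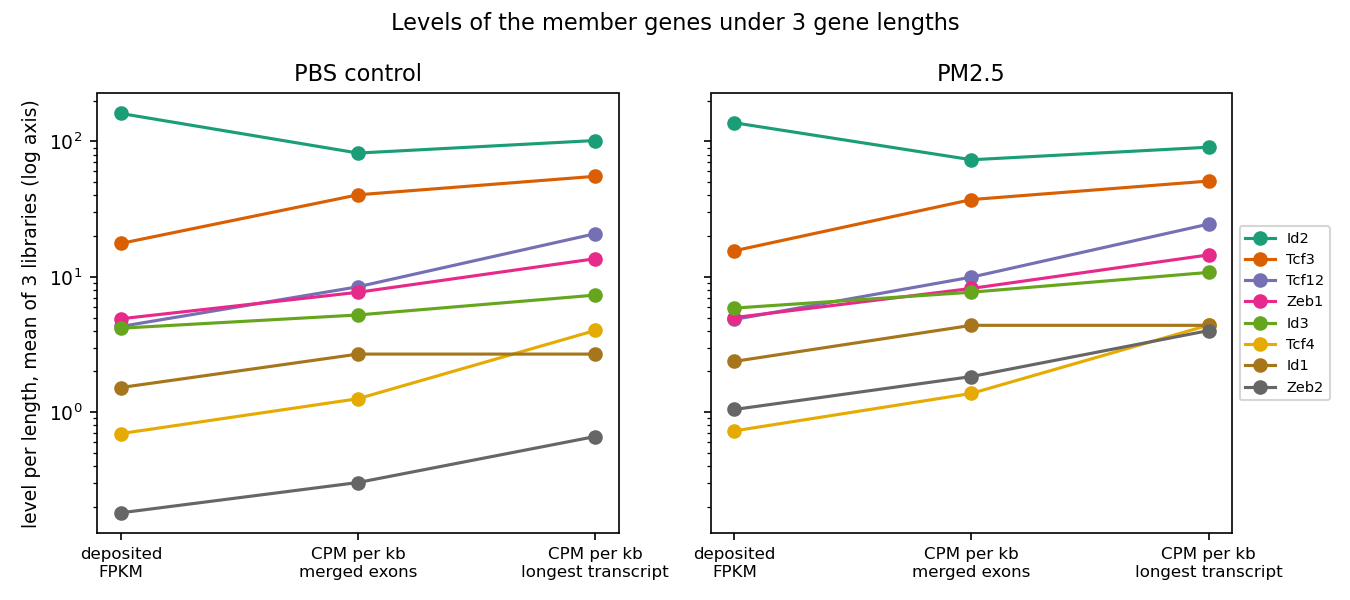
Mean level per length of each gene in the control (left) and PM2.5 (right) group on a log axis, as deposited FPKM, as CPM per kilobase of merged exons, and as CPM per kilobase of the longest transcript. Id2 and Tcf3 keep the top 2 places under each length, and Tcf12 and Tcf4 gain most from left to right.

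The ratio of summed Id to summed E protein transcripts was 7.02, 7.95 and 7.19 in the control and 6.55, 7.21 and 6.92 in the PM2.5 group in deposited FPKM. The groups overlapped. Per kilobase of the longest transcript the means were 1.40 ± 0.08 and 1.33 ± 0.06 (SD, n = 3), and the groups overlapped again. The size of the ratio thus differs about 5-fold between these lengths. RNA levels say nothing here of protein levels.

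Genes that E proteins or Id proteins are known to regulate in lymphocytes were taken as a list of 22, of which 19 could be tested. Of these, 14 fell and 5 rose, and the median log2 fold change was -0.91, beside 35.3% lower and 35.2% higher over all genes. No direction was set for the listed genes, and the list was chosen with earlier results of these data known. These counts therefore do not measure E protein or Id activity. Cxcr5, the follicular homing receptor whose gene E2A and Ascl2 act on, fell (-4.56), as did the cytokine signalling inhibitor Socs3 (-3.32, from 169 ± 1.12 to 17.0 ± 0.39 CPM; SD, n = 3; adjusted p = 3.15e-12) and Tcf7, a factor of naive and stem-like T cells (-1.18).

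Cd4, whose transcription depends on E proteins in developing T cells, fell by 0.27 on the log2 scale, and Foxp3, the regulatory T cell factor for which both Id2 and Id3 have been reported to matter, fell by 0.97. Among genes named after their values were seen, the inhibitor Socs1 (-2.34), the cytokine receptor Il7r (-1.03), Foxo1 (-0.73) and Notch1 (-0.48) also fell. The 5 that rose were the repressor Gfi1 (1.76), the survival gene Bcl2l1 (1.46), the cell cycle inhibitor Cdkn1a (0.90), the homing receptor Ccr7 (0.72) and Gata3 (0.41). Gata3 lost its call with DESeq2 (adjusted p = 0.0896), with library totals (0.0645), with limma on FPKM (0.0847 and 0.0701), with the replicate block (0.0523) and without control replicate 1 (0.112), PM2.5 replicate 1 (0.0903) or PM2.5 replicate 3 (0.072). Rag1, Rag2 and Ptcra, thymic targets of E proteins, were too low to test, and Ptcra had 0 counts in all libraries.

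Of 17 cofactors and turnover factors of E and Id proteins, 14 were tested, 9 with a rise and 3 with a fall, at a median of 0.24. Over all genes tested, 35.2% were higher and 35.3% lower. Wdr48, a partner of the deubiquitinase Usp1, which stabilises Id proteins, rose (0.66, from 118 ± 2.95 to 186 ± 5.95 CPM; SD, n = 3; adjusted p = 7.07e-08), and Usp1 itself rose (0.51). Asb2, the substrate receptor of a ubiquitin ligase that acts on E2A, rose from 5.23 ± 0.59 to 13.2 ± 0.49 CPM (1.34), and the coactivator Crebbp rose (0.43). The 3 that fell were Ldb1, an adaptor that joins complexes of E proteins (-0.74, from 393 ± 12.8 to 236 ± 9.49 CPM), its partner Lmo2 (-2.75, at 2.83 and 0.415 CPM) and the acetyltransferase Kat2b (-0.66). Fzr1, which directs Id proteins to degradation, was called at 0.13 but lost its call with library totals (0.07, adjusted p = 0.0721), with the 5 CPM filter (0.068) and with limma on FPKM.

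A list of 27 other helix-loop-helix genes was also taken, a selection that does not cover the whole family. Of these 27, 13 had 0 counts in every library and 5 were tested. Of the 5 tested, 2 rose and 2 fell, beside 35.2% higher and 35.3% lower over all genes tested. Bhlhe40, an activation-induced repressor that supports cytokine production, rose from 404 ± 1.95 to 973 ± 9.61 CPM (1.27, SE 0.02, adjusted p = 3.62e-11). The Notch target Hey1 fell from 5.60 ± 0.47 to 0.497 ± 0.138 CPM (-3.49), Tal2 rose from 1.15 ± 0.06 to 3.33 ± 0.52 CPM (1.53), and Msc, named after its values were seen, fell from 1.79 ± 0.21 to 0.230 ± 0.148 CPM (-2.91; SD, n = 3). Ascl2, a driver of Cxcr5 and an E protein partner, was below the filter in both groups.

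Id genes are classic targets of BMP and TGF-beta signals, and 19 of 21 receptor and Smad genes were tested. Of these 9 fell and 4 rose, at a median of -0.20, beside 35.3% lower and 35.2% higher over all genes tested. The TGF-beta receptor genes Tgfbr1 (-1.46, from 202 ± 2.64 to 73.6 ± 0.36 CPM; SD, n = 3; adjusted p = 6.51e-11) and Tgfbr2 (-1.48) and the signal carrier Smad3 (-1.30) fell. The BMP receptor gene Bmpr2 (-0.78) and the inhibitory Smad genes Smad6 (-2.84) and Smad7 (-1.71) also fell. The 4 that rose were Bmpr1a (0.29), Acvr2b (1.65), Smad2 (0.83) and the shared Smad4 (0.86). Smad5, a carrier of BMP signals, was called at -0.20 (adjusted p = 0.0477) but lost its call with DESeq2 (adjusted p = 0.0747), with the replicate number as a block (0.123) and without control replicate 2 or 3 or any 1 PM2.5 replicate (0.0593 to 0.148).

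**Figure D4:**
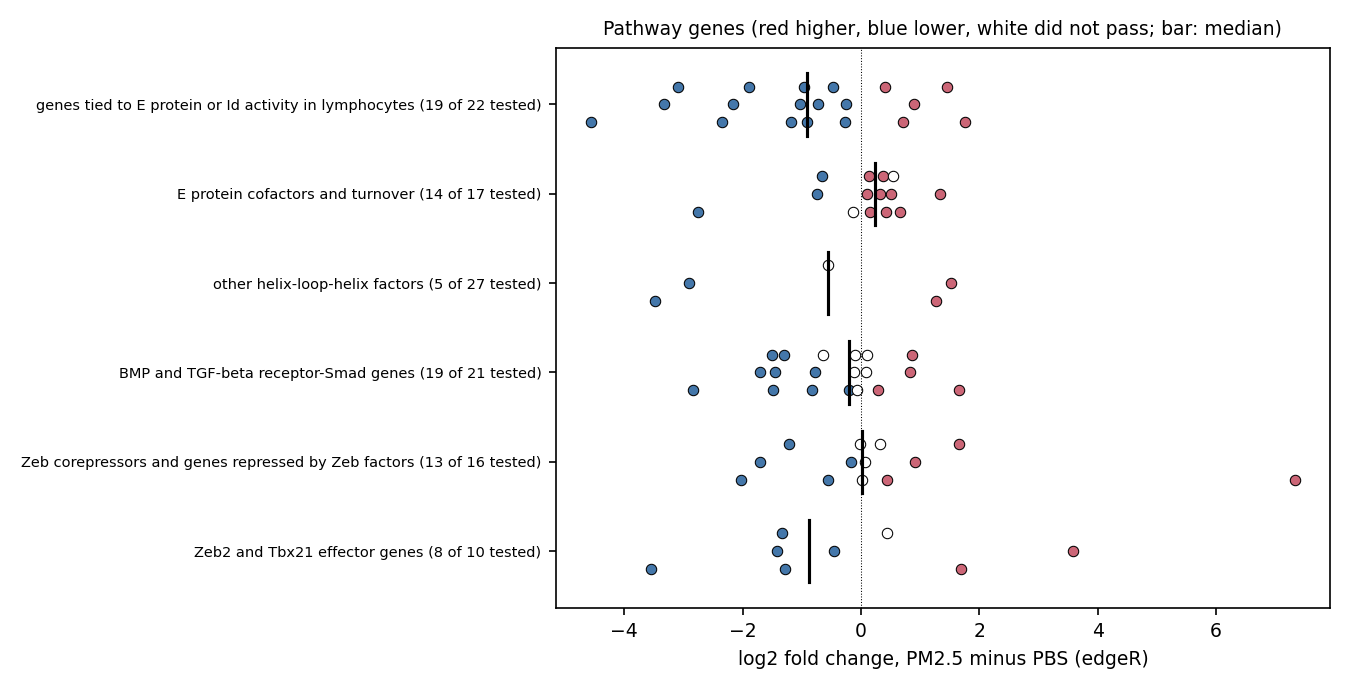
Log2 fold changes of the tested genes of 6 lists around the E protein, Id and Zeb factors, each point a gene (red higher, blue lower, white did not pass) and each bar the list's median. Genes tied to E protein or Id activity lie mostly below 0, cofactors mostly above 0, and the far right point is Il2.

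The corepressors and repressed genes of the Zeb factors went both ways: of 13 tested out of 16, 4 rose and 5 fell, at a median of 0.01. These counts stand beside 35.2% higher and 35.3% lower over all genes tested. Il2, the T cell growth factor gene that Zeb1 represses, rose from 1.92 ± 0.23 to 308 ± 26.7 CPM (SD, n = 3). A link of this rise to Zeb1, whose 95% interval ran from 0.652 to 1.75 times the control, was not tested. The others that rose were the corepressor component Rcor1 (0.44), the corepressor Ctbp2 (0.91, at 1.31 and 2.46 CPM) and the epithelial factor Ovol1 (1.66). The deacetylase Hdac1 fell (-0.55, from 142 ± 2.33 to 97.0 ± 2.22 CPM), with the remodeller Smarca4 (-0.17), Smad7 and the integrin gene Itga4 (-2.02). Grhl2 was called at -1.21 from 0.609 and 0.263 CPM and lost its call with DESeq2 (adjusted p = 0.154), among others.

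Of 10 genes that go with Zeb2 and Tbx21 in terminal effector cells, 8 were tested, of which 5 fell and 2 rose, at a median of -0.88. The shares over all genes tested were 35.3% lower and 35.2% higher. While Zeb2 rose, Cx3cr1, a receptor of terminal effector cells, fell by 3.55 on the log2 scale, from 35.3 ± 0.56 to 3.00 ± 0.20 CPM (SD, n = 3; adjusted p = 6.53e-11). The granule genes Gzmb (-1.42), Prf1 (-1.34) and Gzma (-1.29) fell, as did Prdm1 (-0.46, not called by DESeq2, adjusted p = 0.124). The cytokine gene Ifng rose (1.69), as did the factor Eomes, from 2, 1 and 2 counts in the control to 30, 20 and 25 in the PM2.5 group. Tbx21 itself did not pass (0.44, adjusted p = 0.115), at 1.7 CPM in the control and 2.3 CPM in the PM2.5 group. Klrg1 and S1pr5, further genes of terminal effector cells, had 0 counts in all libraries. Of the 5 Snail and Twist genes, which share targets with the Zeb factors, 2 were tested: Snai3 fell from 1.03 ± 0.15 to 0.273 ± 0.069 CPM (-1.89; SD, n = 3), and Snai1 rose at very low counts (1.36, not called by DESeq2, adjusted p = 0.0741).

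Genes with the most similar profile were sought over the 6 libraries for the most abundant gene of each group, by Pearson's r of log2 CPM among 9377 genes averaging 5 CPM or more. These r are descriptions over 6 libraries that also share depth and treatment. Genes chosen this way share the member's pattern over the libraries by that choice, so the likeness is not a separate result. For Id2 they were Galnt4 (r = 0.99), Lamtor2 (0.99) and Obsl1 (0.99), which fell by 0.26, 0.47 and 0.52 on the log2 scale, Galnt4 without a call in DESeq2 (adjusted p = 0.0605). Tcf3 was most like Ncoa4 (0.99), Sema4d (0.99) and Slc17a5 (0.98), whose values in control replicate 2 lay near those of the PM2.5 group. Sema4d had 409, 215 and 377 CPM in the control and 197, 189 and 189 CPM in the PM2.5 group, the same order as Tcf3 in the control. Sema4d did not pass (-0.80, adjusted p = 0.0582) but did without control replicate 2 (-1.04, adjusted p = 7.2e-08), and also with DESeq2 (adjusted p = 0.00567), library totals (0.0482), the 5 CPM filter (0.0417) and limma on FPKM (0.0156 and 0.0171).

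Zeb1 was most like H2afz (0.97), Dhx16 (0.96) and Pfkfb3 (0.96). Pfkfb3, a regulator of glycolysis, had 28.6, 34.5 and 41.9 CPM in the control and 46.3, 28.3 and 43.2 CPM in the PM2.5 group, so that control replicate 3 and PM2.5 replicates 1 and 3 were high, as for Zeb1. H2afz, a histone variant gene, had 9.41, 10.3 and 21.03 CPM against 17.1, 10.7 and 17.0 CPM. None of these 3 passed (adjusted p = 0.797, 0.998 and 0.588 for H2afz, Dhx16 and Pfkfb3).

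**Figure D5:**
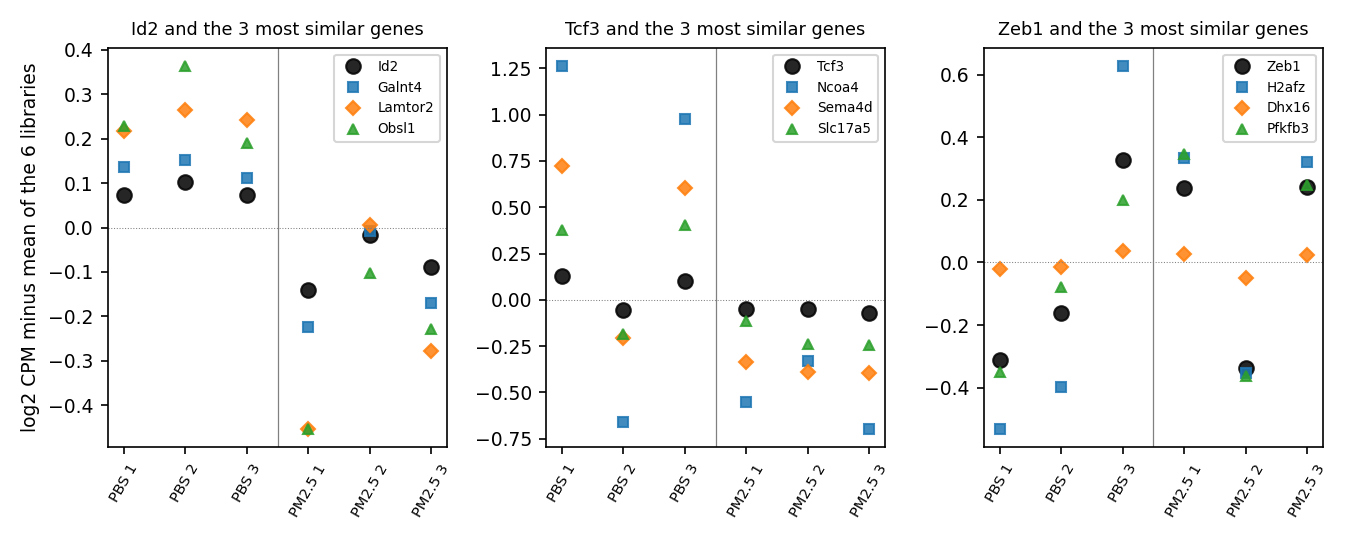
Log2 CPM minus the mean of the 6 libraries for Id2, Tcf3 and Zeb1 (black circles) and the 3 genes most similar to each, with a line between the groups. Id2 and its like genes step down in the PM2.5 group, Tcf3 has control replicate 2 at the PM2.5 level, and Zeb1 is high in control replicate 3 and PM2.5 replicates 1 and 3.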

How the data were processed

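The authors deposited 1 table with raw counts and FPKM values per Ensembl gene for each of the 6 libraries, per the file headers. Alignment tool TopHat2 2.0.6 and build mm10 appear in the submitters' processing notes. Which program counted the reads, on what annotation and strand, is not given in the sources used here, so antisense and overlapping genes can share reads. Genes were kept with filterByExpr (minimum count 10, minimum total 15) and tested with TMM scaling and a robust quasi-likelihood fit (edgeR 4.0.16, R 4.3.3) of PM2.5 against PBS, with Benjamini-Hochberg adjustment over all 12967 genes at 0.05. Common dispersion gave a biological coefficient of variation of 8.17%. Each SE was taken as |log2 fold change| divided by √F. Alternatives used DESeq2 1.42.0 and limma 3.58.1.

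Replicates of a group differed by more than counting error (chi-square of 7.57 to 9.89 per degree of freedom), and each was kept.

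The members and lists were chosen with earlier results of these data known. Named genes are the members, up to 3 genes per list with the smallest adjusted p and at least 1 CPM in a group, and Cxcr5, Il2, Foxp3, Cd4, Bhlhe40 and Id4, with the 3 genes most like the most abundant member of each group. A few results are left out here. List and marker genes named beyond these were chosen after their values were seen. One listed symbol had more than 1 ID, and the ID with most counts was used. Lengths came from GENCODE M21, promoters from RefSeq.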

Additional observations from a re-analysis of the deposited data

How the results depend on the processing

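Id1, Id2, Id3, Tcf12 and Zeb2 kept their direction and their call in each alternative that tested them (14, or 13 for Id1, which the filter at 5 CPM removed). DESeq2 did not call Tcf3 (-0.1036, adjusted p = 0.129), nor did 5 of the 6 fits that left out 1 library. The fit without control replicate 2 kept the call (-0.1734), and the other 5 gave -0.1173 to -0.0845. In those 5 fits and with DESeq2, 1 member was lower in place of 2 (1 to 2 over the fits without single libraries). Zeb1 never passed, and leaving out single libraries gave -0.0359 (control replicate 1) to 0.3055. The cause was not tested. Dhx16, at -0.0001, stood at 0.0133 with DESeq2, at 0.0066 with no filter and at -0.013 to 0.0279 in the fits without single libraries, which gave -0.0818 to 0.5957 for H2afz.

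The ratio of Id to E protein transcripts was 0.648 in the control and 0.577 in the PM2.5 group from counts, 1.40 and 1.33 per kilobase of the longest transcript, and 1.80 and 1.76 per kilobase of merged exons, the last 2 scales chosen after seeing the data. On counts, which take no account of length, the groups did not overlap.

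Library totals moved the median of all genes to -0.07 and the calls to 44.4% higher of those called, from 49.9%. The count of genes called ranged from 7342 to 9582, beside 9149. Deviations of libraries with the same number correlated at 0.0072 to 0.045, and those with different numbers at -0.0374 to 0.0235. Not every library was closest to its own number. Such small correlations, with 3 libraries per group, cannot settle whether the numbers pair the libraries, and the labels do not say. The fit with the replicate number as a block called 9002 genes and changed no member's call. Among the other genes named, Gata3, Grhl2 and Smad5 lost their call there and Slc17a5 gained one. With the filter at 5 CPM the Zeb repressed list had 2 higher and 3 lower, the effector list 1 and 3, and the NK list 0 and 2, since fewer genes were tested. Counts of the macrophage list were 3 lower with DESeq2 and with no filter, beside 1. Depth limits the genes under 1 CPM most.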
